A study of Mus musculus with 24 samples.

Results

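In all, 10 genes of the major histocompatibility complex (MHC) antigen presentation pathway were described across the hippocampus of 24 mice. They were taken by name from a list that was drawn up with earlier results of these data known. They are 10 of the 55385 gene identifiers that were counted in each mouse. Each of the 10 matched 1 identifier of the GENCODE annotation and passed the filter on low counts in each of the 7 comparisons. Of these, 6 serve the class I branch: *B2m*, *H2-D1*, *H2-K1*, *Tap1*, *Tap2* and *Tapbp*. The other 4 serve the class II branch: *Cd74*, *H2-Aa*, *H2-Ab1* and *H2-Eb1*.

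The mice fell into 6 groups of 4, named A to D in each group, and all were adults with floxed *Tsc1* alleles (*Tsc1* f/f) that received tamoxifen. *Tsc1-Cre-* controls carried no Cre transgene and were taken on day 8 after the start of tamoxifen. *Tsc1-Cre+* mice carried CreERT2 under the *Camk2a* promoter, which is active in excitatory neurons of the forebrain, and were taken on day 4, 6, 8 or 13. The rapamycin group (*Tsc1-Cre+*-Rap 4) consisted of *Tsc1-Cre+* mice that received 10 mg/kg rapamycin, an inhibitor of the mTOR kinase, daily from day 4 and were taken on day 13. The whole hippocampus was used, so each value is a mixture of neurons, glia, vessels and any attached choroid plexus, and the *Camk2a* promoter is not active in microglia or endothelium.

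Class I molecules present peptides made inside a cell to CD8-positive T cells. A heavy chain (H2-K1 or H2-D1 in the mouse) pairs with beta-2-microglobulin (B2m), and the TAP transporter (Tap1 with Tap2), held to the heavy chain by tapasin (Tapbp), brings the peptides in. Class II molecules present peptides from ingested material to CD4-positive T cells, and are made mainly by professional antigen-presenting cells. Their alpha and beta chains (H2-Aa with H2-Ab1, and H2-Eb1) are held by the invariant chain (Cd74) until a peptide is loaded. In healthy brain, microglia and endothelium are the main sources of class I transcripts, and class II transcripts are largely limited to macrophages and dendritic cells at the borders of the brain, including the choroid plexus.

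The class I genes *B2m*, *H2-D1* and *H2-K1* varied together across the mice, and short promoter elements are known to be shared by class I and class II genes. Stretches of 120 bases before the RefSeq transcription start are shown for a class I light chain, a class I heavy chain and a class II chain, to let the elements be compared. Capitals mark the letters searched on both strands: the NF-kappa-B motif (GGGA, 4 bases, CC), the core of the interferon-stimulated response element (2 copies of GAAA, 2 bases apart), TGACG, which is part of the cyclic AMP response element, and the Y box (CCAAT, which reads ATTGG on the other strand). The gamma-activated site (TTCNNNGAA) was searched for and was found in none of the 7 windows. Adjoining capitals are overlapping matches on the 2 strands.
B2m: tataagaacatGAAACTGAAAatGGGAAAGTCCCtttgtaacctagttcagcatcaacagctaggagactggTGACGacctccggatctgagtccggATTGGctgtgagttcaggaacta
H2-K1: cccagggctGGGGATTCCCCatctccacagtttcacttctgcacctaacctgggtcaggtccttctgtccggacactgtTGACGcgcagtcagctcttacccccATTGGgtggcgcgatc
H2-Aa: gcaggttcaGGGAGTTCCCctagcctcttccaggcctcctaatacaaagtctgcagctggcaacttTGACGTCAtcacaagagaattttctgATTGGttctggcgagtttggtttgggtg

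In build GRCm38.p6 the *B2m* stretch lies at chr2:122147537-122147656 on the plus strand, the *H2-K1* stretch at chr17:34000348-34000467 on the minus strand, and the *H2-Aa* stretch at chr17:34287844-34287963 on the minus strand. Each lies before the first exon of its gene. The matching stretch of *H2-D1* is identical to that of *H2-K1* at 107 of 120 bases (89.2%). Windows of 300 bases around the start were found in RefSeq for 7 of the 10 members. The Y box letters were in all 7, against 37.9% of 27025 promoters. The TGACG letters were in 5 of 7 (*B2m*, *H2-D1*, *H2-K1*, *Tap1* and *H2-Aa*), against 21.02% of promoters. The NF-kappa-B letters were in 4 of 7 (*B2m*, *H2-D1*, *H2-K1* and *H2-Aa*), against 20.5%, and the interferon element was in *B2m* alone, against 3.49%. The gamma-activated site letters were in 8.47% of promoters. These are matches of letters, not sites of binding.

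Total counts per mouse ranged from 28208561 to 126435936. *Tsc1* itself was at 103 to 110 CPM (read counts scaled to library size with TMM factors) in controls, between 56.7 and 82.0 CPM in the 16 untreated *Tsc1-Cre+* mice, and between 66.3 and 69.0 CPM in the rapamycin group. Neuron markers, among them *Prox1* and *Neurod6* of hippocampal neurons, were present in every mouse and summed to 3395 to 4948 CPM. *Xist*, which is expressed from an inactive X chromosome, was under 10 CPM in 12 mice and at 640 CPM or more in the other 12, and the split was uneven: low in 1 control, 3 day 4 mice, 3 day 6 mice, 1 day 8 mouse, 2 day 13 mice and 2 rapamycin mice. Animal numbers of controls and day 8 mice overlap in series, while no other group shares a series with the controls, which means that time point and cohort cannot be told apart outside day 8. Nothing in the labels says whether mice of a group were littermates, and in bulk tissue fewer cells of a type and less RNA per cell cannot be told apart.

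Members differed greatly in level. Of the 10 genes, 8 lie in the MHC region of chromosome 17, *B2m* on chromosome 2 and *Cd74* on chromosome 18. Per kilobase of exon, the mean over 24 mice was 27.3 CPM for *B2m*, 8.84 for *H2-D1*, 4.98 for *H2-K1* and 4.54 for *Tapbp*. It was lower for the transporter, at 1.18 for *Tap2* and 0.589 for *Tap1*. Class II genes were at 0.657 for *Cd74*, 0.336 for *H2-Eb1*, 0.189 for *H2-Ab1* and 0.156 for *H2-Aa*. *H2-Ab1* had as few as 4 counts in a mouse and *H2-Aa* as few as 6, whereas *B2m* had at least 506.

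The light chain and both heavy chains followed the same order of group means: day 13, day 8, control, then day 4 and day 6 in either order, with rapamycin lowest. *B2m* was at 23.8, 29.3, 22.6 and 24.9 CPM in control mice A to D, and at 19.7, 17.2, 15.3 and 22.98 on day 4. It was at 21.1, 24.2, 21.02 and 21.95 on day 6, at 23.7, 26.4, 30.1 and 27.3 on day 8, and at 29.9, 32.5, 29.7 and 29.3 on day 13. In the rapamycin group it was at 17.6, 16.2, 16.7 and 19.1. All 4 rapamycin mice lay below every control and every day 13 mouse, whereas day 4 mice overlapped the controls through mouse D. Here and below, ranges without overlap are given without the share of all genes, so they cannot be read against it.

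*H2-D1* was at 20.6, 27.6, 22.7 and 24.4 CPM in controls, at 18.6, 16.5, 18.5 and 19.0 on day 4, and at 16.7, 21.2, 16.7 and 18.2 on day 6. It was at 25.7, 25.2, 32.8 and 22.7 on day 8, at 33.0, 39.4, 26.5 and 31.8 on day 13, and at 19.1, 15.9, 17.7 and 17.1 under rapamycin. Every day 4 and every rapamycin mouse was below every control, and 3 of 4 day 13 mice were above every control. *H2-K1* was at 14.9, 21.1, 14.8 and 16.1 CPM in controls, at 12.4, 9.89, 10.4 and 13.7 on day 4, and at 11.7, 16.4, 9.94 and 11.1 on day 6. It was at 16.1, 14.9, 21.8 and 16.3 on day 8, at 20.0, 25.8, 16.6 and 16.7 on day 13, and at 10.2, 9.97, 10.6 and 9.81 under rapamycin. The rapamycin mice were the most alike, with an SD of 0.353 CPM (n = 4), against 4.32 CPM on day 13.

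**Figure D1:**
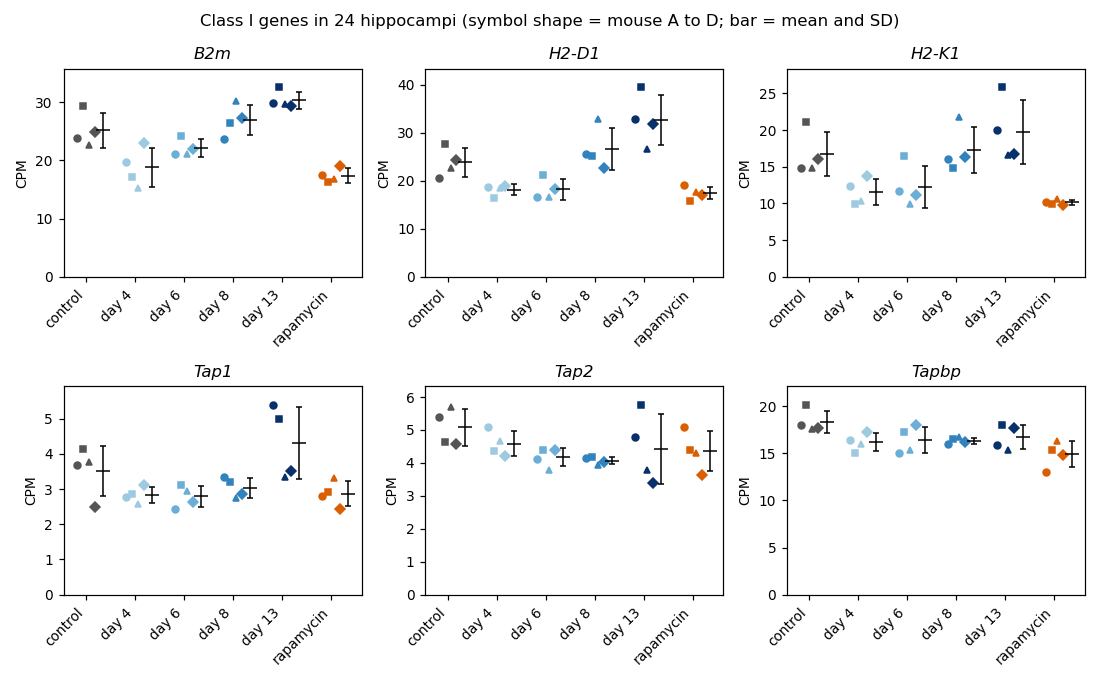
CPM (y axis) of the 6 class I genes in each mouse by group (x axis). Symbol shape marks mice A to D, and the bar beside each group is the mean and SD of 4 mice. *B2m*, *H2-D1* and *H2-K1* were lowest on average under rapamycin and highest on day 13, while the highest group mean was 1.25 times the lowest for *Tap2* and 1.23 times for *Tapbp*.

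Class I members as a group had a median log2 fold change against control of -0.36 on day 4, -0.31 on day 6, -0.05 on day 8, 0.26 on day 13 and -0.36 under rapamycin. The medians of all genes tested were between -0.04 and 0.01 in these comparisons. Class II members had medians of -0.13, -0.13, -0.03, 0.05 and -0.50. Against day 13, the rapamycin medians were -0.70 for class I and -0.61 for class II, beside 0.02 for all genes.

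The first question was whether these genes differed from control at each time after the start of tamoxifen. To be called, a gene needed a log2 fold change of more than 0.5 in size and an adjusted p below 0.05 in edgeR's quasi-likelihood test with Benjamini-Hochberg adjustment over all genes tested. These comparisons share the same 4 controls. On day 4, 1 of 10 members was called, against 0.680% of all genes tested. It was *H2-K1*, which fell by 0.53 on the log2 scale (SE 0.128, adjusted p = 0.0386), to 0.693 of the control level. *H2-D1* had a log2 fold change of -0.39 (SE 0.0855, adjusted p = 0.0256) that stayed under the fold-change minimum, and *B2m* had -0.42 (SE 0.115, adjusted p = 0.0647). The *H2-K1* call was lost with *Xist* as a covariate (adjusted p = 0.166), with the mouse letter as a block (the replicate block, adjusted p = 0.0543), and without control B or D or without day 4 mouse A, B or C.

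On day 6, 0 of 10 members were called, against 1.32% of all genes. All 6 class I genes had an unadjusted p under 0.05, each with a value below zero, and DESeq2 also called 0 members. Counts of unadjusted p against control are given without the share of all genes, so they cannot be read against it. The adjusted p was under 0.05 for *H2-D1* alone, with a log2 fold change of -0.39 (SE 0.094, adjusted p = 0.0173). *H2-K1* was at -0.45 (SE 0.145, adjusted p = 0.0672), and day 6 mouse B, at 16.4 CPM, lay within the range of the controls. Without this mouse, *H2-K1* was called. Microglia markers moved the same way as the class I genes on both days: 8 of 8 had a value below zero, with a median log2 fold change of -0.24 on day 4 and -0.28 on day 6. Their summed level ran from 217 to 266 CPM on day 4 and from 225 to 241 on day 6, against 251 to 301 in controls. Of 6 endothelium markers, 6 were below zero on day 4 and 5 on day 6, with sums of 143 to 164 and 153 to 171 CPM against 160 to 201. Of 4 astrocyte markers, 3 were below zero on day 4 and 4 on day 6, with medians of -0.188 and -0.297. All 3 oligodendrocyte markers were below zero on both days, with medians of -0.249 and -0.315. Of 6 neuron markers, 4 were above zero on each day. The part of any of these cells in the class I values was not tested.

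On day 8, 0 of 10 members were called by edgeR or by DESeq2, against 3.99% of all genes, and 2 had an unadjusted p under 0.05. These were *Tap2*, at -0.31 (SE 0.11, adjusted p = 0.0849), and *Tapbp*, at -0.16 (SE 0.0665, adjusted p = 0.146), and in both every day 8 mouse was below every control. *H2-D1* was at 0.165 and *H2-K1* at 0.05 on the log2 scale, and neither differed from control beyond the spread between mice. Of 8 microglia markers, 6 were below zero and 2 above, with a median of -0.14. Of 6 endothelium markers, 4 were above zero and 2 below, with a median of 0.06.

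On day 13, again 0 of 10 members were called by either tool, against 16.5% of all genes. *H2-D1* was at 0.46 (SE 0.124, adjusted p = 0.0223) and *B2m* at 0.28 (SE 0.0906, adjusted p = 0.0458), both under the fold-change minimum, and these were the 2 members with an unadjusted p under 0.05. Without control B or without day 13 mouse C, *H2-D1* passed the minimum and was called. *H2-Ab1*, at 0.83 (SE 0.536, adjusted p = 0.273), had a larger value with a larger error. Day 13 mice A and B differed from C and D in *Tap1*, at 5.38 and 4.98 CPM against 3.34 and 3.51. Beside a class I median of 0.26, microglia markers had a median of 0.04, with 5 above zero and 3 below. Endothelium markers had a median of 0.36 (5 above, 1 below) and astrocyte markers -0.02 (2 above, 2 below). All 3 oligodendrocyte markers were below zero, with a median of -0.47. The part of these cells was not tested.

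The next question was whether these genes differed between rapamycin-treated *Tsc1-Cre+* mice and either controls or untreated day 13 mice. No *Tsc1-Cre-* mice received rapamycin, and the controls were taken on day 8. Against control, the drug, Cre, the day and the cohort therefore cannot be told apart. Against control, 2 of 10 members were called, both lower, against 1.41% of all genes called and 1.04% called lower. *B2m* fell by 0.52 on the log2 scale (SE 0.0855, adjusted p = 0.00556), to 0.697 of the control level. *H2-K1* fell by 0.71 (SE 0.109, adjusted p = 0.00395), to 0.612 of the control level. *H2-D1* was at -0.44 (SE 0.0905, adjusted p = 0.0183), under the minimum. The *B2m* call rests on a value close to the minimum, since without control B it was lost, as it was without rapamycin mouse B and with the choroid plexus transcript *Ttr* as a covariate.

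Against untreated *Tsc1-Cre+* mice of the same day 13, 4 of 10 members were called, all lower, against 21.1% of all genes called and 11.2% called lower. *B2m* fell by 0.81 on the log2 scale (SE 0.0851, adjusted p = 0.000375), to 0.57 of the day 13 level. *H2-D1* fell by 0.91 (SE 0.117, adjusted p = 0.000791) and *H2-K1* by 0.97 (SE 0.137, adjusted p = 0.00119). In all 3 genes every rapamycin mouse was below every day 13 mouse, and the call was kept under each alternative that was run. How many of all genes were separated in this way is not given. *Tap1*, the other called member, fell by 0.60 (SE 0.188, adjusted p = 0.0358), from 4.303 ± 1.03 to 2.87 ± 0.36 CPM (SD, n = 4). The *Tap1* call was lost without day 13 mouse A or B, without rapamycin mouse A, B or D, with the replicate block (adjusted p = 0.063) and with *Ttr* as a covariate.

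**Figure D2:**
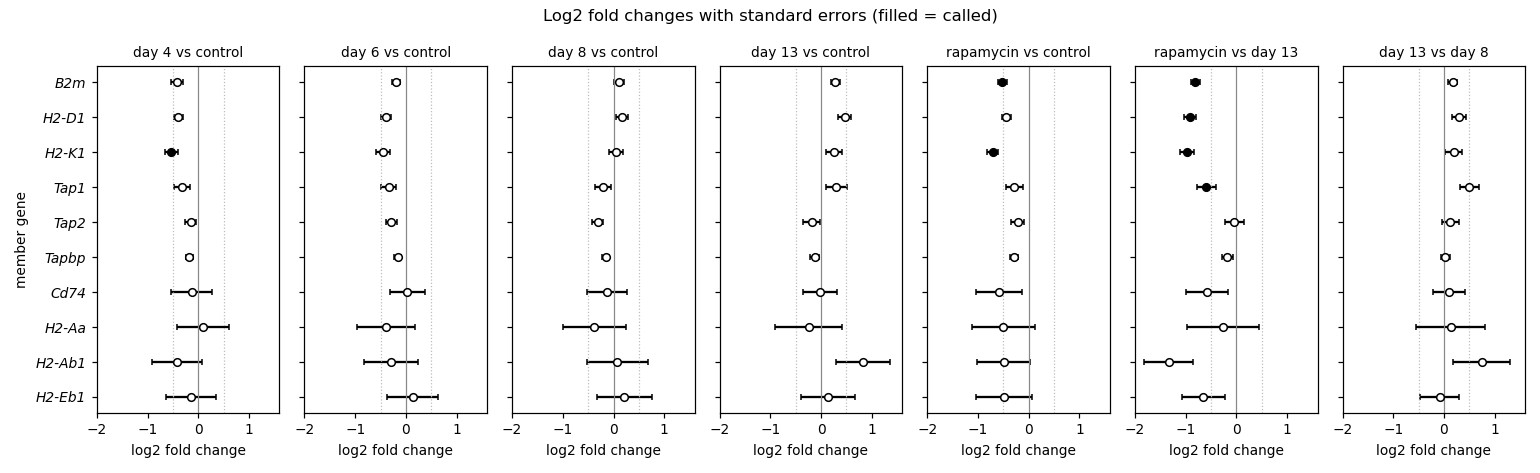
Log2 fold change (x axis) of each member (y axis) in the 7 comparisons, with the standard error as the bar. Filled points were called, dotted lines mark the fold-change minimum of 0.5, and the 4 filled points for rapamycin against day 13 are *B2m*, *H2-D1*, *H2-K1* and *Tap1*.

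The other 2 genes of peptide loading were not called in any comparison by edgeR or DESeq2. *Tap2* forms 1 transporter with *Tap1*, but against day 13 the rapamycin group had a log2 fold change of -0.04 for *Tap2* (SE 0.183, adjusted p = 0.896). *Tap2* was at 5.40, 4.63, 5.69 and 4.59 CPM in controls and at 5.10, 4.401, 4.31 and 3.64 under rapamycin, and the groups overlapped. *Tapbp* was at 18.3 ± 1.20 CPM in controls and at 14.9 ± 1.39 under rapamycin (SD, n = 4), with no overlap and a log2 fold change of -0.28 (SE 0.0795, adjusted p = 0.0704). *Tap1* shares 212 exon bases with *Psmb9* on the opposite strand, *Tap2* 533 with an antisense transcript, and *Tapbp* 904 with an antisense transcript and 149 with *Zbtb22* on the same strand. The strand setting of the counting was not given in the sources used here, so reads of these overlaps could be assigned either way.

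Between day 13 and day 8, 0 of 10 members were called and 0 of all genes (0%) by edgeR on these 8 mice, with 3479 of 24747 genes at an unadjusted p under 0.05 and 241 genes called by DESeq2, none of them a member. *Tap1* was the member with an unadjusted p under 0.05, at 0.50 (SE 0.18, adjusted p = 0.313). *Tap1* was called in the fit of all 24 mice, at an adjusted p of 0.038. Steps between neighbours in the order of group means of log2 CPM were as large as 0.90 for *H2-Ab1* (day 13 to day 8, exact permutation p = 0.286), 0.58 for *Cd74* (day 4 to rapamycin) and, among class I genes, 0.46 for *H2-K1* (control to day 6), and in each of these 3 steps the groups overlapped. Of 50 steps, 1 had an exact permutation p of 0.0286, the smallest that 70 arrangements allow (two-sided), from control to day 4 for *H2-D1*, and none passed adjustment over the 50. A step could pass only if most of the 50 reached that smallest p, and neighbours in an order of means are the closest groups by construction. The lack of a pass therefore does not show that the groups were alike.

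Class II genes were near the limit of detection, and no class II member was called in any comparison by edgeR. Over the 7 comparisons 1 class II value had an unadjusted p under 0.05, and DESeq2 called 1, both being *H2-Ab1* for rapamycin against day 13. *Cd74* was at 0.851, 2.15, 1.14 and 0.677 CPM in controls, at 1.21, 1.05, 1.06 and 1.40 on day 13, and at 0.590, 0.307, 1.61 and 0.650 under rapamycin. Its means in the remaining groups were 1.11, 1.23 and 1.101 CPM in the order of days, and each overlapped the controls. *H2-Aa* was at 0.296, 1.54, 0.537 and 0.348 CPM in controls, and *H2-Eb1* at 0.333, 1.58, 0.395 and 0.310. In each of these 3 genes control B stood above the other controls.

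*H2-Ab1* had the largest class II value. It was at 0.407, 1.01, 0.348 and 0.155 CPM in controls, at 1.15, 1.02, 0.279 and 0.902 on day 13, and at 0.208, 0.180, 0.621 and 0.325 under rapamycin. Its log2 fold change for rapamycin against day 13 was -1.34 (SE 0.478, adjusted p = 0.0566), and day 13 mouse C lay inside the range of the rapamycin mice. It was called with DESeq2, with *Xist* as a covariate, and without day 13 mouse C or rapamycin mouse C. *Cd74* was called in this comparison without rapamycin mouse C.

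In most groups the mouse highest in class II was also highest in *Ttr*, the transthyretin transcript that marks choroid plexus epithelium. *Ttr* was at 18.6, 1511, 40.1 and 29.1 CPM in controls, at 609, 625, 8.80 and 938 on day 4, and at 5.79, 1027, 694 and 658 on day 6. It was at 8.95, 6.49, 19.3 and 581 on day 8, at 234, 121, 13.1 and 345 on day 13, and at 5.69, 48.4, 462 and 20.7 under rapamycin. The mouse with the highest *Ttr* of its group also had the highest summed class II level in 5 of 6 groups, the exception being day 6, where mouse B led in *Ttr* and mouse D in class II. For *H2-Ab1* alone this held in 4 of 6 groups. Below the top mouse the link was loose: the class II sum was 1.90 CPM in day 4 mouse B and 3.54 in day 8 mouse C. Fibroblast markers were also highest in the mouse that led in class II, except on day 8, where mouse C led in them. The 7 choroid plexus markers summed to 38.0 to 1704 CPM. Class II sums ran from 1.49 to 6.28 CPM in controls and from 1.14 to 4.06 CPM under rapamycin. The part of attached choroid plexus or of fibroblasts in these values was not tested.

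**Figure D3:**
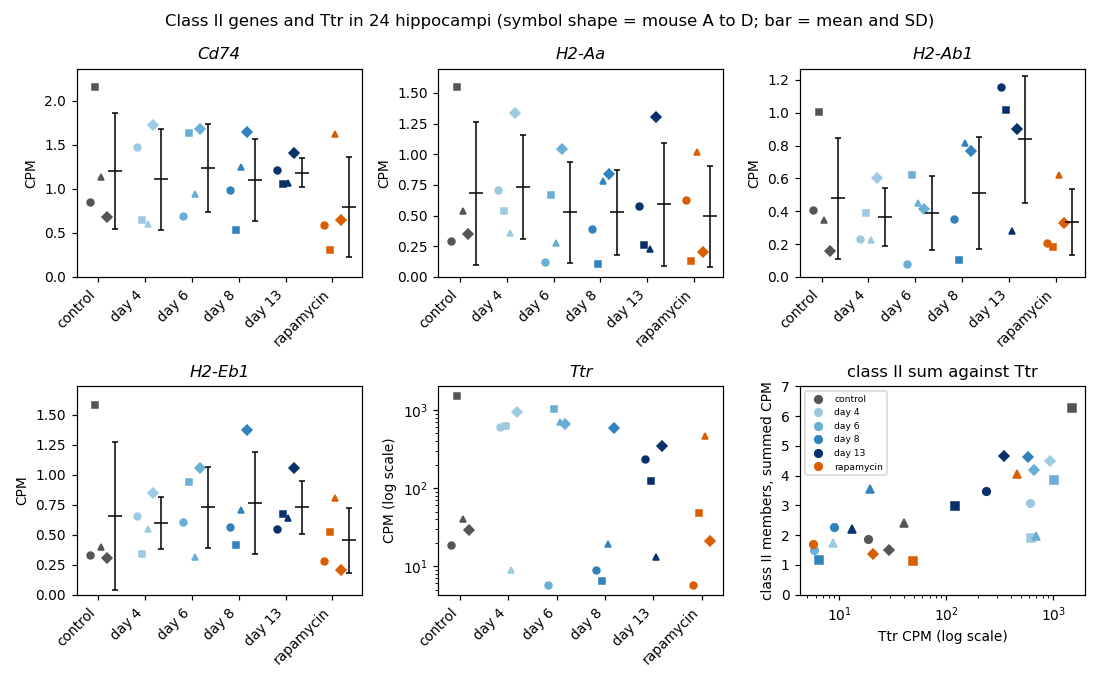
CPM of the 4 class II genes (linear axis) and of *Ttr* (log axis) in each mouse by group, with the mean and SD of 4 mice except for *Ttr*. The last panel plots the summed class II CPM (y axis) against *Ttr* (x axis, log scale), and control mouse B, at 6.28 against 1511 CPM, lies at the upper right.

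Most markers of microglia, endothelium, astrocytes and oligodendrocytes were lower in the same rapamycin mice as the class I genes. For scale, 1.04% of all genes tested were called lower than control. Of 8 microglia markers, 3 were called lower under rapamycin than in control (*Aif1*, *Cx3cr1* and *Itgam*), and the summed level ran from 186 to 214 CPM under rapamycin against 251 to 301 in controls and 246 to 350 on day 13. Of 6 endothelium markers, 2 were called lower than control (*Cldn5* and *Kdr*), with sums of 125 to 138 CPM under rapamycin against 160 to 201. Of 4 astrocyte markers, 3 were called lower, with sums of 673 to 722 CPM against 827 to 910. Of 3 oligodendrocyte markers, 2 were called lower, with sums of 1659 to 2282 CPM against 2086 to 3155. Neuron sums were 3477 to 4452 CPM against 3791 to 4655. Against day 13, 4 of 8 microglia, 4 of 6 endothelium and 3 of 4 astrocyte markers were called lower, beside 11.2% of all genes. None of the 3 oligodendrocyte markers was. Other lists did not fall: of 4 dendritic cell markers tested against day 13, 3 were above zero and 1 below. Of these, *Flt3* was called higher, at 0.77, and *Itgax* lower, at -2.59. Against control, 2 of 3 dendritic cell markers tested were above zero, and 0 were called. All 4 hemoglobin genes were above zero against day 13, with 0 called. The part of these cells in the fall of *B2m* and *H2-K1* was not tested.

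Hemoglobin genes were called lower than control in 4 of 4 cases on day 4, day 6 and day 13 and in 2 of 4 under rapamycin, and summed to 43.8 to 61.5 CPM in controls against 21.1 to 54.2 in all other mice. The shares of all genes called in these comparisons were 0.680%, 1.32%, 16.5% and 1.41%. T and NK cell markers summed to 0.520 to 1.64 CPM in all mice, *Cd3d* was at 0 counts in 21 of 24 mice, *Gzmb* in 19 and *Nkg7* in 14. *Ly6g* was at 0 in 21 mice, and monocyte and neutrophil markers summed to 0.274 to 1.59 CPM. Fibroblast markers summed to 17.2 to 68.5 CPM and were highest in day 13 mouse D. Border macrophage markers summed to 6.09 to 16.6 CPM, with 1 of 5 called higher on day 13 (*Cd163*), beside 16.5% of all genes called. *Ccr7*, a marker of migrating dendritic cells, was at 0 in 16 mice. *Flt3* and *Ighm*, on the dendritic cell and B cell lists, had at least 7.67 and 4.25 CPM in every mouse.

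A further 50 genes of antigen presentation and its regulation were tested (49 and 48 in the rapamycin comparisons), none of them a member. On day 4, 0 of 50 were called by edgeR, 16 had an unadjusted p under 0.05 and 1 was called by DESeq2, beside 0.680% of all genes called. The share of all genes with an unadjusted p under 0.05 is not given for day 4. On day 6, 1 of 50 was called (1.32% of all genes), the class I gene *H2-Q4*, which fell by 0.82 (SE 0.238, adjusted p = 0.0437), a call that was lost without 1 mouse in 5 of 8 cases (control A or B, or day 6 mouse A, C or D). On day 8, 2 of 50 were called (3.99% of all genes), both higher: *Cd1d1*, which presents lipids, and the lysosomal protease *Ctsl*. The day 8 call of *Cd1d1* was lost without any 1 control and without day 8 mouse A or C. On day 13, 4 of 50 were called, all higher, beside 16.5% of all genes, so the share called was close to that of all genes on day 8 and below it on day 13. They were *Cd1d1*, at 3.73 (SE 0.672, adjusted p = 0.00438), *Ifi30*, a lysosomal thiol reductase, at 1.63, *Ctsl* at 1.02 and the co-stimulator *Cd86* at 0.72. *Ifi30* was at 3.08, 7.58, 1.84 and 1.38 CPM in day 13 mice A to D, and without mouse B it was at 0.92 (adjusted p = 0.0516) and no longer called. Its call was also lost without any 1 control, and that of *Cd86* without control A, B or C. Those of *Cd1d1* and *Ctsl* were kept without any 1 mouse.

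Against control, 5 of 49 were called under rapamycin, all lower, beside 1.41% of all genes called and 1.04% called lower. *Nlrc5*, the transactivator of class I genes, fell by 0.88 (SE 0.213, adjusted p = 0.0401), and *Psmb8*, an immunoproteasome subunit, fell by 0.77 (SE 0.169, adjusted p = 0.0256). *Irf8*, *Ctss* (cathepsin S, which cuts the invariant chain) and *H2-Q4* fell by 0.82, 0.57 and 1.04. The *Nlrc5* call was lost without any 1 of the 8 mice, with adjusted p values of 0.0506 to 0.12. The calls of *Psmb8* (kept without control C or rapamycin mouse B) and *H2-Q4* (kept without control C or D) were each lost in 6 of 8 cases. Those of *Irf8* and *Ctss* were kept without any 1 mouse. Against day 13, 16 of 48 were called lower and 0 higher, beside 21.1% of all genes called and 11.2% called lower. Without 1 mouse at a time, 14 of the 16 kept their call, the exceptions being *Ifi30* (without day 13 mouse B, at -0.81, or any 1 rapamycin mouse) and *Nlrc5* (without day 13 mouse A or B or rapamycin mouse A, C or D). The list of class I peptide supply and loading held 4 of these: *Psmb8*, which fell by 1.08, and the chaperones of heavy chain folding *Canx*, *Calr* and *Pdia3*, which fell by 0.71, 0.67 and 0.59. Of the other class I genes, *Cd1d1*, *H2-M3* and *H2-Q4* fell by 3.95, 0.78 and 0.72. Of the class II and processing genes, *Ifi30* and the proteases *Ctsl*, *Ctss* and *Lgmn* fell by 1.52, 1.22, 0.98 and 0.66. The co-stimulators *Cd40* and *Cd86* fell by 1.58 and 0.99, and the regulators *Nlrc5* and *Ifngr2*, a chain of the interferon-gamma receptor, fell by 1.18 and 0.57. *Irf8*, a transcription factor of microglia and other myeloid cells, fell from 6.51 ± 1.74 to 2.94 ± 0.344 CPM (SD, n = 4). The median log2 fold change of the 48 was -0.33, beside 0.02 for all genes tested.

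Between day 13 and day 8, 0 of 50 were called by edgeR or DESeq2 and 10 had an unadjusted p under 0.05, all with a higher value on day 13.

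*Nlrc5* was at 1.74, 2.65, 1.66 and 1.53 CPM in controls, at 3.55, 2.84, 1.23 and 1.503 on day 13, and at 0.937, 1.24, 1.08 and 0.813 under rapamycin. Every rapamycin mouse was below every control, while rapamycin mouse B was above day 13 mouse C. *Psmb8* was at 1.961, 1.80, 1.53 and 1.84 CPM in controls, at 1.91, 3.22, 1.48 and 2.00 on day 13, and at 0.867, 1.23, 1.08 and 0.934 under rapamycin, with no overlap between rapamycin and either group. *Psmb9*, whose gene runs head to head with *Tap1*, was at 1.08 ± 0.0835 CPM in controls and at 0.931 ± 0.13 under rapamycin (SD, n = 4), and its log2 fold change against day 13 was -0.01 (SE 0.233, adjusted p = 0.982).

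*Irf1*, an activator of class I transcription, was at -0.37 on day 4, -0.48 on day 8 and -0.40 on day 13 on the log2 scale, with adjusted p values of 0.0319, 0.0238 and 0.0373, all under the fold-change minimum. It was at -0.14 on day 6 (adjusted p = 0.383) and at -0.19 under rapamycin (adjusted p = 0.355). *Ciita*, the transactivator of class II genes, was at 9.61 ± 0.344 CPM in controls, 9.99 ± 0.873 on day 13 and 8.97 ± 1.20 under rapamycin (SD, n = 4), and was at 7.62 CPM or more in every mouse. On day 4 its log2 fold change was 0.26 (SE 0.0644, adjusted p = 0.0412), under the minimum, with every day 4 mouse above every control. *H2-Ea-ps*, the class II alpha chain gene that is inactive in mice of the b haplotype, had 0 counts in 22 of 24 mice and at most 2 in the others.

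**Figure D4:**
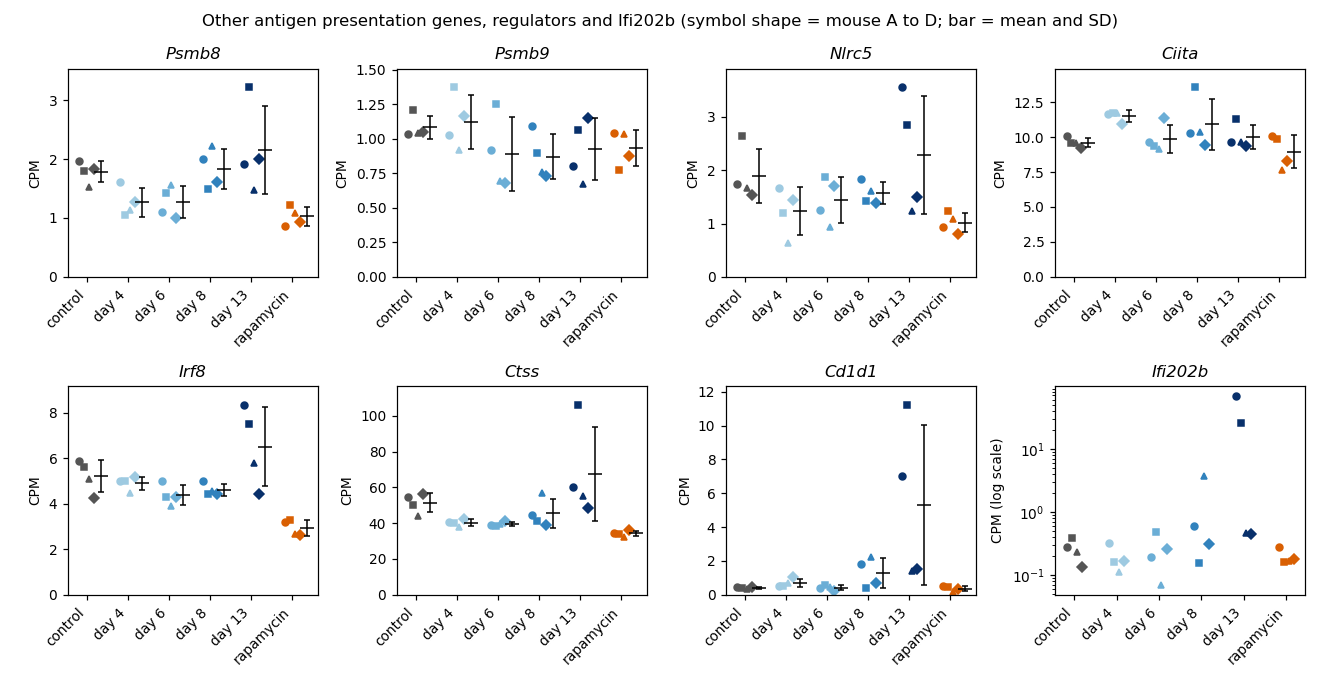
CPM of 8 genes that are no members in each mouse by group (*Ifi202b* on a log axis), with the mean and SD of 4 mice except for *Ifi202b*. *Psmb8*, *Nlrc5*, *Irf8* and *Ctss* were lowest on average under rapamycin, *Psmb9* and *Ciita* were called in no comparison, and day 13 mice A and B stood above C and D in *Cd1d1* and *Ifi202b*.

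Day 13 mice A and B also stood apart in *Ifi202b*, an interferon-inducible gene whose level differs between mouse strains. It was at 68.8 and 25.4 CPM in these mice, against 0.474 and 0.451 in C and D, and at most 0.386 CPM in controls. Day 8 mouse C, at 3.69 CPM, was also above every control. Against control, the day 13 value of *Tap1* was 0.30 on the log2 scale with all mice, 0.18 without mouse A and 0.24 without mouse B. *Nnt*, also on the list of strain-variable genes, was called lower on day 13 than in control, at -0.83 (adjusted p = 0.00258). The name *Nnt* matched 2 identifiers, and only 1 of them is described. Its 4 day 13 mice were at 2.54, 2.95, 2.68 and 3.03 CPM, so that A and B did not stand apart from C and D in this gene. Its values against control were -0.32 on day 4, -0.39 on day 6, -0.47 on day 8 and -0.03 under rapamycin. Mice A and B were also the 2 day 13 mice with *Xist* under 10 CPM. They shared an animal number series, while C and D each came from another. A difference in genetic background between these mice was not tested, and it cannot be told apart from *Xist* level or number series.

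Among the 24 mice the 3 pairs of *B2m*, *H2-D1* and *H2-K1* had Pearson correlations of log2 CPM between 0.872 and 0.932, and between 0.54 and 0.838 after group means were removed. Over all 15 pairs of class I genes, with *Tap1*, *Tap2* and *Tapbp* included, correlations ran from -0.0687 to 0.932, with a median of 0.523. After group means were removed, the median of these 15 pairs was 0.392. The 6 pairs of class II genes had correlations of 0.503 to 0.799. Pairs of a class I and a class II gene ranged from -0.146 to 0.61. *H2-D1* and *H2-K1* are similar copies, so reads could be split between them, and all correlations share the same libraries.

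Of 13909 protein-coding genes with a mean of at least 1 CPM, those most like the class I members, by Pearson correlation with their mean z score over 24 mice, were *Tmbim6* (0.891), *S100a16* (0.886), *Nlrc5* (0.858), *Ifitm3* (0.855), *Tmem173* (0.849) and *Itgb2* (0.849). *Ifitm3*, an interferon-induced membrane protein, had geometric means of 3.50 CPM in controls, 5.66 on day 13 and 1.88 under rapamycin. *Itgb2* encodes an integrin chain of leukocytes. Those most like the class II members were *Pcolce* (0.878), *Sulf1* (0.865), *Sgms2* (0.85), *Col1a2* (0.848), *Prlr* (0.84) and *Cgnl1* (0.832). *Col1a2* and *Pcolce* encode a collagen chain and a protein that helps to process collagen. With the 2 mice farthest from the median left out, the 12 correlations were between 0.756 and 0.846. After group means were removed, those for class I ran from 0.548 (*Tmem173*) to 0.802 (*Ifitm3*). Those for class II then ran from 0.851 to 0.893.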

How the data were processed

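The authors prepared stranded, rRNA-depleted total RNA libraries from hippocampus, trimmed reads with cutadapt 1.16.5, aligned them with STAR 2.7.2b to GRCm38 and counted them per GENCODE gene with featureCounts 1.6.4 (versions per the submitters' processing notes). They deposited raw counts without normalization, 1 library per mouse. How multiply aligned reads were counted is not given in the sources used here. Gene names come from GENCODE M21, in which 55144 of 55385 identifiers were found.

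Groups and mouse letters come from the sample labels. Each comparison was fitted on its 8 mice with glmQLFTest of edgeR 4.0.16 (R 4.3.3, quasi-likelihood) (filterByExpr, TMM, Benjamini-Hochberg), tested on simulated data first. Calls needed an adjusted p below 0.05 and a log2 fold change of more than 0.5 in size. Values per mouse are CPM with TMM factors over 24 mice. The letters name different animals. Deviations of same-letter mice correlated above 0.1 in all 4 pairs in none of the 7 comparisons, so the replicate block is an alternative only. Other alternatives were DESeq2 1.42.0, RLE size factors, no filter, a fit of all 24 mice, the animal number series as a block, no fold-change minimum and each mouse left out. *Ttr* and *Xist* covariates were chosen after seeing the data.

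The members, the lists of antigen presentation genes and the marker lists were chosen with earlier results of these data known. All members are named, with the up to 4 called genes of each list with the largest change, a fixed set of regulators and related genes in every case, and the 6 protein-coding genes most like each class. Promoters come from RefSeq. Results for some listed genes are not reported here.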

Additional observations from a re-analysis of the deposited data

Results flagged for a closer look

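Of 60 groups of 4 values (10 members in 6 groups), 1 held a value whose gap to its nearest neighbour was past Dixon's critical value for 4 samples. It was *H2-Eb1* in control mouse B, at 1.58 CPM, and chance alone gives such a gap in about 5% of groups. This mouse also had the highest *Ttr* of all, at 1511 CPM, and the part of choroid plexus in the value was not tested.

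The effect relative to control differed between untreated day 13 mice and rapamycin mice for 4 members, by the edgeR test of rapamycin against day 13. The differences on the log2 scale were -0.81 for *B2m*, -0.91 for *H2-D1*, -0.97 for *H2-K1* and -0.60 for *Tap1*. In each, the rapamycin mice were lower than the day 13 mice in 4 of 4 cases. The share of all genes with such a separation is not given. Microglia, endothelium and most astrocyte markers were lower in the same mice, and their part was not tested.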

How the results depend on the processing

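Counts of members called were unchanged on day 8 under every alternative (0 of 10), including the animal number series as a block. Against 1 member on day 4, the fit of all 24 mice, the replicate block and the *Xist* covariate gave 0, and the *Ttr* covariate and no fold-change minimum gave 2. Against 0 on day 6, the *Ttr* covariate and no fold-change minimum gave 1. Against 0 on day 13, no fold-change minimum gave 2. Against 2 for rapamycin and control, the *Ttr* covariate gave 1 and no fold-change minimum gave 3, and against 0 for day 13 and day 8, the fit of all 24 mice gave 1. Against 4 for rapamycin and day 13, DESeq2 and the *Xist* covariate gave 5, and the *Ttr* covariate and the replicate block gave 3. Apart from this and day 4, the replicate block changed no count. Without 1 mouse at a time, the counts ran from 0 to 2 on day 4, 0 to 1 on day 6, 0 to 1 on day 13, 1 to 3 for rapamycin against control and 3 to 6 for rapamycin against day 13. No called value changed its sign. The cause of these shifts was not tested, except that the fold-change minimum removes small changes by construction.

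With 4 mice a group, the *H2-K1* call on day 4 was lost when any 1 of several mice was left out. The same held for the *Tap1* call for rapamycin against day 13. The *B2m* call for rapamycin against control was lost without control B or without rapamycin mouse B. Class II genes had from 4 to 128 counts per mouse, and a difference of the size seen for *H2-K1* could not be told from the spread between mice in them. Reads of *H2-D1*, *H2-K1* and other class I genes can be split between similar copies, and these genes vary between mouse strains. Group means had the same order with RLE as with TMM factors in 8 of 10 members, the exceptions being *H2-D1* and *Tapbp*. Of 50 steps between neighbouring groups, 1 had an unadjusted exact p under 0.05 with TMM factors and 0 with RLE factors, and 0 passed adjustment with either. Passing was nearly out of reach, since most steps would have had to reach the smallest possible p of 0.0286.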
